A study of Homo sapiens with 9 samples.

Results

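The resting transcriptome of EA.hy926 cells was described from the 3 arrays of unexposed cells, out of 9 arrays in the series. EA.hy926 is an established human line made by fusing umbilical vein endothelial cells with the lung carcinoma line A549, so each cell carries chromosomes of an endothelial and an epithelial tumour parent. The labels class its morphology as endothelial. Unexposed cells had been plated overnight, and their RNA was hybridised, after biotin labelling of 300 ng per array, to Affymetrix whole-transcript arrays. The other arrays came from cells given silver particles of 5 nm or 100 nm for 6 h, and their expression was not analysed here. Nothing in the labels says that the 3 control arrays came from separate cultures, so the spread between them may be technical.

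Genes were taken as members of the description by name: every gene symbol with a probe set entered, which gave 14884 genes. Each gene was ranked by brightness within each array, and the rank was written as a percentile from 0 (dimmest) to 100 (brightest). A gene with several probe sets (779 genes) was represented by the one with the highest mean over the 3 arrays. Other probe sets of such a gene could lie far lower. Probe brightness depends on how well the probes bind as well as on how much RNA is present, so the order of genes is an order of brightness and not of transcript numbers. No group was compared, and the values are therefore given without a test.

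Endothelial cells line blood vessels and are recognised by adhesion molecules of their cell contacts, by receptors for vascular growth factors, and by the enzymes and hormones that set vessel tone. Simple epithelia such as that of the lung are instead held together by E-cadherin and EpCAM and are filled with keratins, and their specialised cells secrete surfactant. A hybrid of both parents can keep, lose or silence either programme. Dividing lines of any origin share high levels of the genes for DNA replication and mitosis.

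The 3 arrays ordered the genes alike, with Spearman correlations across genes between 0.978 and 0.984. On the deposited log2 scale, array medians over all probe sets were 5.62, 5.16 and 5.39 for replicates 1, 2 and 3. A log2 value of 5 was used as a floor, and 10764 to 11896 genes per array reached it. The floor was reached on all 3 arrays by 10498 genes (70.5%) and on none by 2678. Protein-coding genes had a median percentile of 57.4 (11916 genes), against 26.5 for long non-coding RNAs (1398 genes) and 15.6 for microRNA loci (1072 genes). The median for all named genes was 49.8. Among all named genes, 22.1% lay in the top 25% of every array and 18.0% lay below the floor on every array. Both shares are the background for the counts of members that follow. Among protein-coding genes alone the shares were higher in the top 25% (26.7%) and lower below the floor (12.6%).

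The brightest gene was RPS28, which encodes a small-subunit ribosomal protein, with log2 values of 13.62, 13.34 and 13.42. It was followed by the ribosomal protein gene RPL10 and by HSPB1, the small heat shock protein HSP27. The other 12 of the 15 brightest were TMSB10 and PFN1 (both binders of actin monomers), EFEMP1 (fibulin-3, a matrix glycoprotein), OAZ1 (an inhibitor of polyamine synthesis), RPL41, CALR (calreticulin), SRGN (the granule proteoglycan serglycin), AMTN (amelotin, a protein of tooth enamel formation), the annexin pseudogene ANXA2P2, COX6A1 (a subunit of cytochrome c oxidase), CCN2 (connective tissue growth factor) and PRDX1 (a peroxidase). Each of these 15 lay at or above the 99.8 percentile on all 3 arrays by its brightest probe set. The dimmest probe sets of COX6A1, CCN2 and RPL41 lay at mean percentiles of 31.2, 79.5 and 81.5. AMTN gave 13.30, 12.83 and 13.09. The pseudogene ANXA2P2, a near copy of ANXA2, gave 13.14, 12.98 and 12.90, whereas the probe set for ANXA2 itself, looked at after its values were seen, gave 8.66, 8.67 and 8.51. Signal from the copy and the parent gene was not separated. The elongation factor gene EEF1A1, one of the most highly transcribed genes of most human cells, lay only at the 63.6, 69.3 and 72.2 percentiles.

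The 6 groups of genes differed widely in their place in this order. Their median percentiles were 89.4 for cell cycle genes (85 measured of 122 listed), 80.2 for stress genes (95 of 156), 73.3 for endothelial genes (68 of 82), 56.5 for xenobiotic genes (45 of 153), 38.8 for epithelial genes (57 of 79) and 37.3 for cytokine genes (128 of 206). The top 25% of every array held 70 cell cycle genes, 51 stress genes, 29 endothelial genes, 12 xenobiotic genes, 5 epithelial genes and 20 cytokine genes. Below the floor on every array were 0, 5, 4, 8, 7 and 33 genes of those groups. Cell cycle and stress genes therefore exceeded the background share of 22.1% in the top 25% (82.4% and 53.7%), as did endothelial genes (42.6%). They also exceeded the share of protein-coding genes (26.7%). The lists were chosen with earlier results of these data known. Xenobiotic genes (26.7%) were near the background and at the protein-coding share, and epithelial (8.77%) and cytokine genes (15.6%) were under both. Epithelial genes below the floor (12.3%) were near the protein-coding share of 12.6%.

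**Figure D1:**
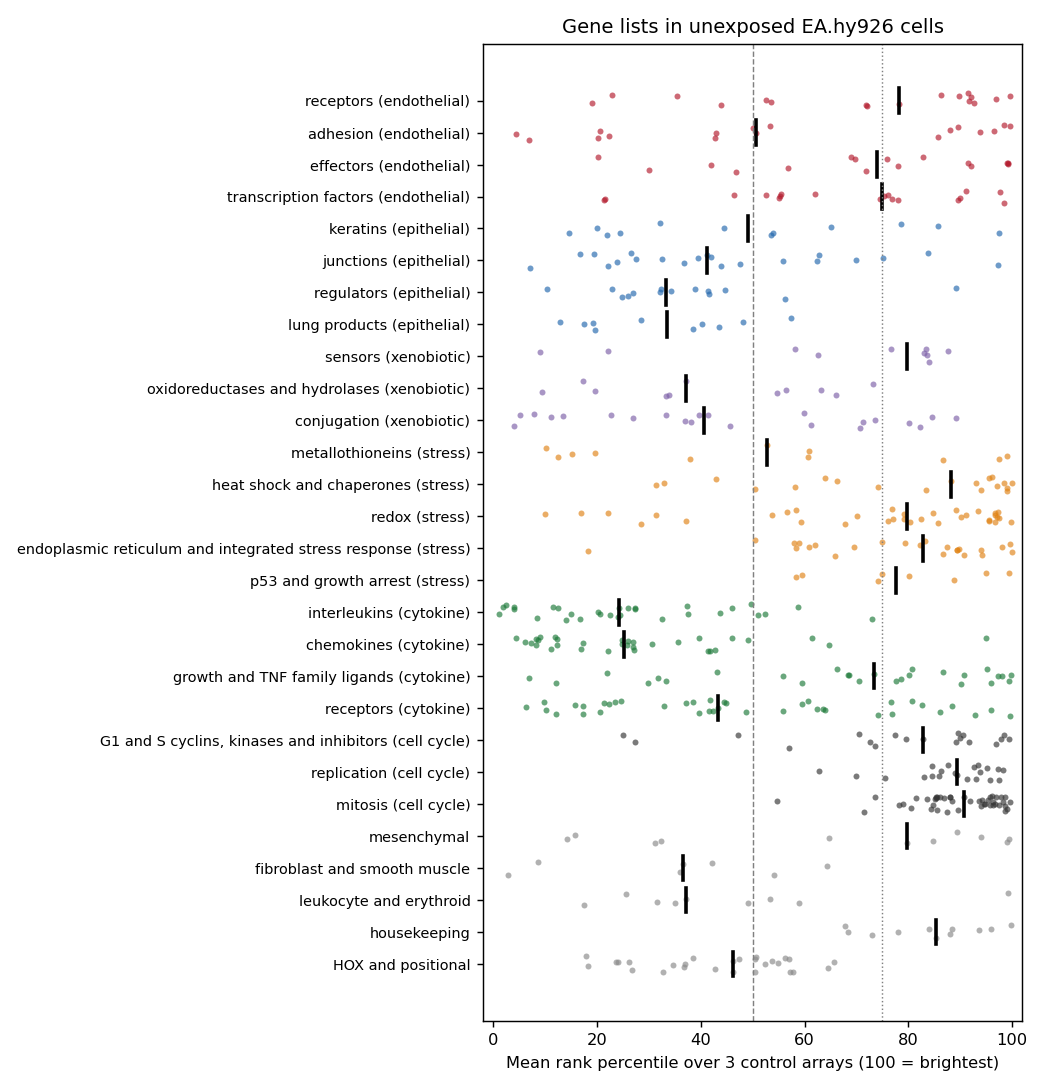
Mean rank percentile over the 3 control arrays (horizontal axis, 100 is the brightest) of each measured member of each gene list (points, spread vertically only for visibility), with the list's median as a black bar. The dashed line marks the 50th and the dotted line the 75th percentile; the mitosis list lies furthest right with a median of 90.8, and the interleukins furthest left with a median of 24.2.

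Endothelial receptors were mostly bright. Of 17 measured, 9 lay in the top 25% of every array and 0 below the floor, with a median percentile of 78.3. ENG (endoglin, a co-receptor for bone morphogenetic proteins) lay at 99.6, 99.6 and 99.8, with log2 values of 12.51, 12.24 and 12.45. JAG1, a Notch ligand, lay at 96.1, 96.7 and 98.2. The sphingosine-1-phosphate receptor S1PR1 (92.6 ± 0.22, mean percentile ± SD, n = 3 arrays), the orphan receptor kinase TIE1 (92.2 ± 0.22) and the semaphorin receptor PLXND1 (91.8 ± 1.7) followed. These 5 held nearly the same place on each array. KDR, the main receptor for vascular endothelial growth factor A, lay at 74.5, 65.4 and 76.3, with log2 values of 8.47, 7.26 and 7.97. It was thus above the median gene on all 3 arrays and in the top 25% on 1 of them. The dimmest receptors were DLL4, the Notch ligand of arterial tip cells, at 35.5 ± 4.9, FLT4, the lymphatic receptor for vascular endothelial growth factor C, at 22.9 ± 8.4, and the apelin receptor APLNR at 19.0 ± 7.4. TEK, the angiopoietin receptor, had no named probe set.

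Adhesion genes spread over the whole order, with a median of 50.6, 7 in the top 25% of every array, 4 below the floor and 6 between. ICAM2, a ligand for leukocyte integrins that endothelium carries constitutively, lay at 99.6, 99.6 and 99.7, with log2 values of 12.54, 12.23 and 12.42. ESAM, a junctional immunoglobulin protein, lay at 98.3, 98.3 and 98.4. PODXL (podocalyxin) lay at 96.3, 95.4 and 98.1, and PECAM1, the classic junctional marker CD31, at 93.2, 93.7 and 94.3. CD93, a lectin-like receptor of endothelium and myeloid cells, lay at 89.5 ± 2.2. These 5 were in the top 25% of every array, together with STAB1 and JAM3, for 7 of the 17 measured. CLDN5, the claudin of endothelial tight junctions, sat near the middle at 53.3 ± 2.7. So did ICAM1, an inducible receptor for leukocytes, at 51.5, 45.1 and 55.3, and the progenitor and vessel marker CD34, at 40.9, 41.8 and 46.2, both named after their values were seen. The dimmest were VCAM1 (20.2 ± 6.8), a receptor for leukocytes that inflammatory signals bring out, JAM2 (6.89 ± 3.5) and the sialomucin EMCN (4.40 ± 0.91), all below the floor on all 3 arrays. STAB2 was the only other adhesion gene below the floor throughout. SELE, the inducible E-selectin, named after its values were seen, gave 5.08, 4.70 and 4.97. CDH5, which encodes VE-cadherin, had no named probe set. ECSCR, an endothelial surface protein chosen after its values were seen, lay at 99.8, 99.7 and 99.8.

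Among effectors, the secreted proteoglycan ESM1 (99.3 ± 0.22), the vasoconstrictor peptide gene EDN1 (99.2 ± 0.15) and ECE1 (99.0 ± 0.23), the protease that matures endothelin, lay together near the top. THBD (thrombomodulin, an anticoagulant receptor) followed at 92.0 ± 1.2 and NOS3, the endothelial nitric oxide synthase, at 92.4, 91.0 and 91.1. VWF, which endothelial cells store in Weibel-Palade bodies, lay at 39.1, 46.7 and 40.1, with log2 values of 6.07, 6.03 and 5.84. It was above the floor on each array but under the median gene. ACE, the angiotensin-converting enzyme, lay at 29.9 ± 3.2. ANGPT2, another Weibel-Palade cargo, lay at 20.2 ± 7.2. The 16 measured effectors had a median of 73.9, with 6 in the top 25% of every array and 0 below the floor.

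The transcription factors that direct the endothelial programme had a median of 74.9 over 18 genes, with 7 in the top 25% of every array and 0 below the floor. EPAS1, the hypoxia-inducible factor 2 alpha, lay at 98.5 ± 0.52 and KLF2, a factor that shear stress induces, at 97.7 ± 0.84. SOX7 (91.2 ± 2.9), FLI1 (89.9 ± 0.31) and ETS1 (89.7 ± 1.3) followed. ERG, an ETS factor of endothelial identity that was named as a marker, lay at 78.9, 79.6 and 75.8. PROX1, the master factor of lymphatic endothelium, lay at 46.3 ± 6.6, TAL1, a factor of blood and vessel precursors, at 21.6 ± 3.2, and HEY1, an arterial Notch target, at 21.4 ± 3.8.

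**Figure D2:**
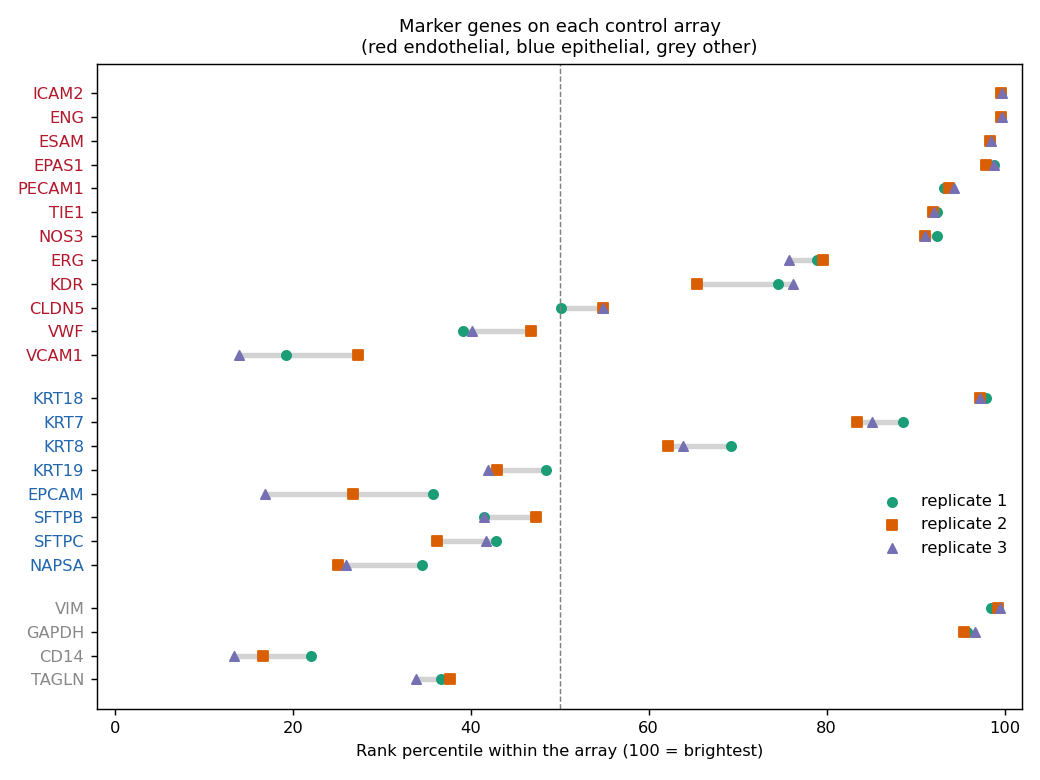
Rank percentile within each control array (horizontal axis, 100 is the brightest) of endothelial (red names), epithelial (blue names) and other (grey names) marker genes, with 1 symbol per replicate and a grey bar over their range. ICAM2, ENG and ESAM lie above the 98 percentile on all 3 arrays, whereas VWF and VCAM1 lie under the 50 percentile. Among the epithelial markers KRT18 lies near 97.5 and the surfactant genes lie under 50.

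Epithelial genes were dimmer, with a few exceptions. Keratins had a median of 49.0 over 12 genes. KRT18, the type I keratin of simple epithelia, lay at 98.0, 97.3 and 97.2 by its brighter probe set, although its other probe set lay at 63. KRT7, a keratin of glandular and lung epithelium, lay at 88.6, 83.4 and 85.1. KRT80 lay at 78.5 ± 7.1, and KRT8, the partner of KRT18, at 69.2, 62.2 and 63.9. KRT15, a basal-layer keratin, lay at 53.9 ± 3.7. KRT19, another simple keratin and a named marker, lay at 48.4, 42.9 and 42.0. Keratins of basal and stratified epithelium lay apart from one another. KRT16, named after its values were seen, lay at 53.6 ± 5.5, near KRT15, whereas KRT5 lay at 21.8 ± 3.4 and KRT13 at 14.5 ± 1.5, both below the floor on all 3 arrays. KRT20, an intestinal keratin, lay at 20.1 ± 2.4. KRT18 and KRT7 were the 2 in the top 25% of every array, and the simple keratins as a class spread over the whole list.

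Junction genes had a median of 41.1 over 21 measured, with 2 in the top 25% of every array. These were TJP1, the scaffold protein ZO-1 that endothelium also makes, at 97.3 ± 1.2, and PKP2, a desmosomal plakophilin that is also found outside epithelia, at 83.8 ± 7.3. CLDN1 lay at 69.1, 84.8 and 71.4, JUP (plakoglobin, shared by desmosomes and adherens junctions) at 69.9 ± 4.6, and PKP3 at 62.8 ± 1.4. EPCAM, the pan-epithelial adhesion protein, gave log2 values of 5.89, 4.95 and 4.61, above the floor in replicate 1 and below it in the other 2. The lowest were MARVELD2 (tricellulin) at 19.4 ± 2.7, and the desmosomal cadherins DSC2 at 16.7 ± 1.5 and DSG2 at 6.99 ± 5.1, the last 2 below the floor throughout. CDH1, which encodes E-cadherin, had no named probe set.

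Regulators of epithelial identity had a median of 33.3 over 14 genes, and GATA6, a factor of lung and heart development, was the 1 in the top 25% of every array at 87.7, 90.5 and 89.7. SOX9 lay at 56.2 ± 4.3, FOXA2 at 44.7 ± 5.3 and the splicing regulator ESRP2 at 41.5 ± 2.8. NKX2-1, the defining factor of lung epithelium, lay at 44.7, 43.3 and 36.3 by its brighter probe set. Its other probe set lay at a mean percentile of 18.2. GRHL2, an activator of epithelial adhesion genes, lay at 24.8 ± 3.9, SOX2 at 22.9 ± 3.4 and ESRP1 at 10.2 ± 1.8. Lung products had a median of 33.5 over 10 genes and 0 in the top 25%. AGER, a product of flat alveolar cells, lay highest at 57.4 ± 0.80, followed by the water channel AQP5 at 48.1 ± 2.9. The surfactant protein genes SFTPB, SFTPC and SFTPD lay at 43.5 ± 3.4, 40.2 ± 3.5 and 38.5 ± 4.6, and SFTPA1 at 12.8 ± 3.2, below the floor throughout. NAPSA, a protease that processes surfactant, lay at 34.5, 25.1 and 25.9. HOPX lay at 19.3 ± 3.9 and LAMP3 at 17.4 ± 5.6. None of the named lung products except AGER exceeded the median of all named genes in its mean.

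Mesenchymal genes, which fibroblasts, endothelial cells and many tumour lines share, had a median of 79.8 over 11 measured, with 6 in the top 25% of every array. FN1 (fibronectin) lay at 99.5 ± 0.15 and VIM, the intermediate filament vimentin, at 98.5, 99.2 and 99.5. CD44 (94.1 ± 1.1), SNAI1 (89.5 ± 2.2) and MMP14 (84.7 ± 4.7) followed. TWIST2 lay at 31.2 ± 4.9, S100A4 at 15.7 ± 7.2 and TWIST1 at 14.2 ± 2.7. The genes VIM and KRT18, the latter for a simple keratin, were therefore both bright. Markers of fibroblasts and smooth muscle had a median of 36.5 over 7 genes and 0 in the top 25%, with RGS5 highest at 64.2 ± 2.9, DES at 54.1 ± 3.0 and CSPG4 at 42.1 ± 10. The actin-binding protein TAGLN lay at 36.0 ± 2.0, and the matrix proteoglycans LUM and DCN lay at 8.50 ± 3.7 and 2.75 ± 1.2, below the floor. Of 9 measured leukocyte and erythroid genes, 1 lay in the top 25% of every array. It was CD68, a lysosomal protein that macrophages carry in large amounts and other cells in smaller ones, at 99.2 ± 0.22. The list's median was 37.2, near that of the epithelial genes (38.8). LYZ lay at 59.0 ± 10 by its brighter probe set, and its other probe set lay at 6.64. CD8A lay at 53.4 ± 2.7, NKG7 at 49.0 ± 3.6 and CSF1R at 37.2 ± 5.9. Percentiles near the middle were thus also reached by leukocyte genes. The monocyte marker CD14 lay at 22.1, 16.7 and 13.4 and the granule protein gene GNLY at 25.7 ± 6.3. The positional HOX genes had a median of 46.3 over 27 measured, none of them in the top 25% or below the floor on every array, with HOXD8 highest at 65.7 ± 7.4 and HOXC8 next at 64.6 ± 1.9. Housekeeping genes had a median of 85.3 over 11 measured. GAPDH, the glycolytic enzyme given as a reference, lay at 95.8, 95.4 and 96.7, with log2 values of 10.75, 10.24 and 10.26.

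Of 153 genes for xenobiotic sensing and metabolism, 45 had a named probe set, and the account of this group is accordingly partial. Of the cytochrome P450 list, 2 of 34 were measured, the electron donors CYB5R3 (96.8 ± 0.10) and CYB5A (94.1 ± 2.5), and no P450 enzyme itself. Of the 24 drug transporters 0 were measured. The sensors and their partners were bright, with a median of 79.8 over 10 genes and 6 in the top 25% of every array. KEAP1, the repressor that holds the oxidant sensor NRF2 in the cytoplasm, lay at 87.6 ± 2.8, and CUL3, its ubiquitin ligase partner, at 83.4 ± 3.6. NFE2L2, which encodes NRF2, named after its values were seen, lay at 76.0, 76.1 and 77.7. AHR, the receptor for dioxins and polycyclic hydrocarbons, lay at 80.1, 86.4 and 82.4 and its partner ARNT at 86.8, 82.7 and 82.3. The fatty acid receptor PPARD lay at 83.5 ± 2.5, whereas PPARA lay at 22.2 ± 5.0 and PPARG at 9.01 ± 2.4. MAFF, a small MAF protein, lay at 58.1 ± 4.2.

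The enzymes that were measured were dimmer. Conjugating enzymes had a median of 40.6 over 22 genes, with 4 in the top 25% of every array and 5 below the floor. The bright ones were glutathione transferases: GSTP1 at 88.7, 85.1 and 94.1, GSTK1 at 84.6 ± 1.1, GSTO1 at 82.3 ± 5.4 and MGST1 at 80.2 ± 2.3. GSTT2 was next at 73.5 ± 0.76. The alpha-class transferase GSTA2, abundant in liver, lay at 5.21 ± 0.79, the mu-class GSTM3 at 7.75 ± 2.0, and the acetyltransferase NAT2 at 3.92 ± 3.2. Oxidoreductases and hydrolases had a median of 37.2 over 11 genes measured of 40 listed, with 0 in the top 25% of every array. NQO1, AKR1B10, AKR1C1, ALDH1A1, ALDH3A1 and EPHX1 were among those without a named probe set, so their level is not known here. The carbonyl reductases CBR1 (73.3 ± 4.0) and CBR3 (66.1 ± 6.7) lay highest, then PTGR1 (63.2 ± 3.5), DHRS2 (56.5 ± 8.0) and the monoamine oxidase MAOA (54.8 ± 0.87). MAOB lay at 17.3 ± 1.4, and the flavin mono-oxygenases FMO5 and FMO1 at 19.6 ± 0.92 and 9.45 ± 2.6.

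The stress list was bright without any exposure, with a median of 80.2, as was the housekeeping list at 85.3. Whether a stress response was active in these cells was not tested. Heat shock proteins and chaperones had a median of 88.3 over 19 genes, with 11 in the top 25% of every array and 0 below the floor. HSPB1 lay at the 99.98 percentile on each array, with log2 values of 13.49, 13.24 and 13.18. The inducible HSP70 genes HSPA1A (99.1 ± 0.12) and HSPA1B (98.4 ± 0.28), near-identical copies whose signal was not separated, lay high, as did the mitochondrial HSPA9 (99.0 ± 0.10) and the exchange factor HSPH1 (97.1 ± 0.32). HSPA6, an HSP70 that is nearly silent until strong stress, lay at 31.4, 30.2 and 32.7. HSPA12A lay at 43.0 ± 2.6 by its brighter probe set, and its other probe set lay at a mean percentile of 12.9. HSPA6 had the lowest mean of its list, although HSPB8, at 44.1, 28.0 and 26.6, was dimmer than HSPA6 on 2 of the 3 arrays.

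Redox genes had a median of 79.7 over 34 measured, with 20 in the top 25% of every array. PRDX1 lay highest at 13.03, 12.81 and 12.77 on the log2 scale, followed by the lipid peroxidase GPX4 (97.6 ± 0.84), PRDX6 (97.3 ± 0.64), TXN, which encodes thioredoxin (97.1 ± 1.4), and glutathione reductase GSR (96.8 ± 0.54). HMOX1, the haem-degrading enzyme that oxidants induce, named after its values were seen, lay at 68.0, 77.0 and 85.8, a wider range than those 5. The dimmest were GPX7 (22.1 ± 6.0), the gut peroxidase GPX2 (16.8 ± 7.5) and SESN3 (10.0 ± 3.0). The p53 and growth arrest list had 8 measured members and a median of 77.5, with GDF15, a stress-induced hormone, at 99.4 ± 0.21, BAX at 94.9 ± 1.3, CCNG1 at 88.9 ± 3.7, PMAIP1 at 80.2 ± 3.5 and RRM2B at 74.9 ± 8.4. TP53I3, BBC3 and SESN1 were lowest, at 74.2 ± 2.5, 59.6 ± 4.3 and 58.4 ± 2.5.

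Genes of the endoplasmic reticulum and the integrated stress response had a median of 82.8 over 24 genes. The calcium-binding chaperones CALR (99.94, the mean percentile) and CANX (99.6 ± 0.036), the sensor ATF6 (98.2 ± 0.45) and SEL1L, of the machinery that degrades misfolded proteins (94.0 ± 1.6), lay high, as did the translationally controlled factor ATF4 (94.2 ± 2.0). DDIT3, which encodes the death-associated factor CHOP, lay at 57.9, 40.9 and 52.7, CRELD2 at 57.9 ± 3.1 and VLDLR at 18.3 ± 5.6. In the RefSeq promoter table, 23 of these 24 genes had an entry. A CCAAT box (CCAAT on either strand) lay in the 250 upstream bases of 16 of them (69.6%), against 34.7% of 9707 protein-coding genes. A CCAAT followed after 9 bases by CCACG, the layout of the endoplasmic reticulum stress element, which contains a CCAAT box, was found in 4 of them (CALR, CANX, XBP1 and CRELD2) and in 10 of the 9707.

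Metallothioneins are small proteins that bind zinc, copper, cadmium and silver. They differed by member from the top to the bottom of the order. MT1X lay at 99.3, 98.8 and 98.9 and MT2A at 96.9, 97.2 and 98.1. MTF1, the zinc-sensing factor that switches them on, lay at 86.7 ± 0.91. MT4 and MT1E followed at 60.8 ± 0.84 and 60.7 ± 2.7. MT1M (15.1 ± 10), MT1B (12.5 ± 4.5) and MT1H (10.1 ± 4.2) were below the floor on all 3 arrays. Of the metallothioneins measured, MT1X and MT2A were the ones in the top 25% of every array. The paralogs are near-identical in sequence, and sharing of signal between their probes was not tested. A TATA box (TATAAA on either strand) was present upstream of 4 of the 6 list members with a promoter entry, against 7.89% of protein-coding promoters. The 100 bases before the starts of the 2 bright genes are shown because both carry that box close to the start, with its letters in capitals (RefSeq, GRCh38.p14, 5′ to 3′ on the gene's strand).
MT1X, chr16:56682370-56682469, plus strand: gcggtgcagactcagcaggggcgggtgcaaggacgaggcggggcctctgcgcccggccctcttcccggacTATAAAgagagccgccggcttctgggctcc
MT2A, chr16:56608484-56608583, plus strand: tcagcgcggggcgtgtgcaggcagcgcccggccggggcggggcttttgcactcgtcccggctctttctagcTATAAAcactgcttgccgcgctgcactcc
The first base of the box lay 30 bases before the start in MT1X and 29 bases before it in MT2A.

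Soluble inflammatory signals were mostly dim. Interleukins had a median of 24.2 over 30 genes, with 0 in the top 25% of every array and 12 below the floor. IL18, a cytokine stored as a precursor, lay highest at 70.5, 79.2 and 69.2, and IL11 next at 58.8 ± 5.4. IL17D (52.4 ± 2.5), CTF1 (51.1 ± 3.6) and IL17C (49.6 ± 0.37) followed. IL21 (2.33 ± 0.098), IL26 (1.80 ± 0.84) and IL2 (1.11 ± 0.32), products of lymphocytes, lay lowest. IL6, IL1A and IL1B had no named probe set. Chemokines had a median of 25.2 over 32 genes and 13 below the floor. The exception was CCL2, which recruits monocytes, at 94.4, 92.4 and 98.1, with log2 values of 10.44, 9.69 and 10.78. CXCL2 lay at 64.7 ± 5.3. CXCL8, interleukin 8, which recruits neutrophils, gave log2 values of 6.71, 7.07 and 7.65 and ranged over more than 20 percentiles between arrays. CCL5 lay at 49.2 ± 10 and CX3CL1 at 46.0 ± 0.68. The interferon-induced CXCL10 lay at 4.29 ± 0.89, CXCL13, which recruits B cells, at 6.16 ± 2.1, and CXCL6 at 7.23 ± 1.7. CCL2 was therefore the 1 chemokine in the top 25% of every array.

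The measured growth factors and TNF-family ligands (27 of 52 listed) had a median of 73.5, with 11 in the top 25% of every array. That median was above those of the interleukins and chemokines. LTA, LTB, TNFSF10 and TNFSF11 of the TNF family, the interferon genes IFNB1 and IFNG, and CSF2 had no named probe set. The median therefore does not describe them. CCN2 lay at 99.8, 99.9 and 99.9. GDF15 lay at 99.4 ± 0.21, FGF2, a mitogen of endothelium, at 98.0 ± 0.65, and FGF5 at 97.2 ± 0.56. MIF lay at 95.9 ± 0.80. The lowest were BMP4 (21.9 ± 2.8), EREG, which encodes epiregulin (log2 values 4.67, 3.72 and 4.18), and HGF (6.85 ± 3.1). HGF was thus below the floor, while its receptor MET lay at 95.6, 96.8 and 95.3. Cytokine and growth factor receptors had a median of 43.4 over 39 genes, with 8 in the top 25% of every array. AXL, the receptor kinase for GAS6, lay at 99.6, 99.8 and 99.5. TLR4, the endotoxin sensor, lay at 92.9 ± 1.4, OSMR, a receptor for oncostatin M, at 88.4 ± 0.50, and IL4R at 86.2 ± 0.28. The receptors CCR2 (10.2 ± 5.4) and KIT (9.78 ± 6.2) of leukocytes and blood precursors were below the floor, as was CCR1, with log2 values of 3.79, 3.30 and 3.57.

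Cell cycle genes were the brightest of the 6 groups, and no member was below the floor on all 3 arrays. Among G1 and S regulators (median 82.9 over 19 genes), CDK4 lay at 99.4 ± 0.26 and its partner cyclin D1, CCND1, at 98.5 ± 0.25. E2F7 (98.0 ± 0.13), CDK2 (96.9 ± 0.66) and RB1, the retinoblastoma protein that CDK4 inactivates (91.7 ± 1.4), followed. The other D-type cyclins were dimmer, CCND3 at 47.2 ± 3.9 and CCND2 at 27.3 ± 5.1. CDKN2A, which encodes the CDK4 inhibitor p16, gave log2 values of 5.23, 4.97 and 5.05, at the floor. CDKN1A, which encodes p21, had no named probe set. Replication genes had a median of 89.4 over 21 genes, with 18 in the top 25% of every array. PCNA, the sliding clamp, lay at 98.3 ± 0.47, TYMS, the thymidylate synthase, at 97.6 ± 0.25, and the helicase subunits GINS1 and MCM7 at 97.3 ± 0.45 and 95.8 ± 0.72. RRM1, of ribonucleotide reductase, lay at 95.2 ± 1.5. FEN1 (75.5 ± 3.5), CLSPN (70.0 ± 1.1) and GINS4 (62.8 ± 5.6) were the lowest.

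Mitosis genes had a median of 90.8 over 45 genes, and 41 of them (91.1%) lay in the top 25% of every array. PLK1, a kinase of mitotic entry and exit, gave log2 values of 12.62, 12.39 and 11.81 and lay at 99.7, 99.7 and 99.4. CKS2 (99.1 ± 0.094), AURKB (98.7 ± 0.24), the topoisomerase TOP2A (98.7 ± 0.30) and CDC20 (98.6 ± 0.47), an activator of the anaphase-promoting complex, followed. MKI67, the proliferation antigen Ki-67, named after its values were seen, lay at 96.7 ± 0.31. MAD2L1 (73.6 ± 7.2), CDC25C (71.5 ± 3.3) and PTTG1, which encodes securin (54.6 ± 5.5), were the lowest. On the log2 scale PLK1, TOP2A, CDK4 and PCNA were all highest in replicate 1, the array with the highest overall median. Percentiles this close to 100 have little room to differ. Members further down varied more, such as MAD2L1 at 81.3, 72.6 and 66.9 and CDK1, the kinase of mitotic entry, named after its values were seen, at 84.5, 83.4 and 73.6, both lowest in replicate 3.

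In textbook accounts, late cell cycle genes are controlled through a CCAAT box and a nearby cell cycle homology region, and replication genes through E2F sites. The 250 bases before the RefSeq start were searched for these letters. Promoter entries existed for 40 of the 45 mitosis genes and 18 of the 21 replication genes. CCAAT was found in 31 mitosis promoters (77.5%), in 13 replication promoters (72.2%) and in 34.7% of the 9707 protein-coding promoters. The homology region (TTTGAA on either strand) was found in 22 mitosis promoters (55.0%), in 1 replication promoter (5.56%) and in 10.1% of protein-coding promoters. Both together were found in 19 mitosis promoters (47.5%) and in 4.10% of protein-coding promoters. An E2F site (TTTCCCGC or TTTGGCGC on either strand) was found in 7 replication promoters (38.9%), those of PCNA, TYMS, MCM7, GINS2, MCM3, MCM6 and CDT1, in 3 mitosis promoters (7.50%) and in 2.78% of protein-coding promoters. The G1 and S list held an E2F site in 5 of 13 promoters (38.5%), close to the replication share. The HOX list held CCAAT in 9 of 11 promoters (81.8%) and the homology region in 3 (27.3%), so CCAAT was not particular to cell cycle lists. No letters of the CCAAT box and the homology region coincide in the promoters shown. In all, 17 motifs were searched, and the ones given were chosen after the counts were seen. A match is a description of letters and not of a bound site.

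The promoters of PLK1, CKS2, TOP2A and CDC20 are shown because these genes are among the 5 brightest of the mitosis list and each holds both motifs. Capitals mark CCAAT or its reverse complement ATTGG, and TTTGAA or its reverse complement TTCAAA (RefSeq, GRCh38.p14, the 250 bases before the start, 5′ to 3′ on the gene's strand).
PLK1, chr16:23678639-23678888, plus strand: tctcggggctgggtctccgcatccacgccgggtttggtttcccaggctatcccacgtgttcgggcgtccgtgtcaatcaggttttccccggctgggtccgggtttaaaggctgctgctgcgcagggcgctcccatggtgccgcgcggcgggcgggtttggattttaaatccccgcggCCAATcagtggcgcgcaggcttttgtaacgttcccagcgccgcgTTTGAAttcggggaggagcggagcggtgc
CKS2, chr9:89310945-89311194, plus strand: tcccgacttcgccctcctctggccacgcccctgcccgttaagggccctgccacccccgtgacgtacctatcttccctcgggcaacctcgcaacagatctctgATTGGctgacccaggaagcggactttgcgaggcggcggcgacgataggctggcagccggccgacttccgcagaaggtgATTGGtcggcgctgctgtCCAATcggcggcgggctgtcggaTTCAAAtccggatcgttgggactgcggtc
TOP2A, chr17:40417897-40418146, minus strand: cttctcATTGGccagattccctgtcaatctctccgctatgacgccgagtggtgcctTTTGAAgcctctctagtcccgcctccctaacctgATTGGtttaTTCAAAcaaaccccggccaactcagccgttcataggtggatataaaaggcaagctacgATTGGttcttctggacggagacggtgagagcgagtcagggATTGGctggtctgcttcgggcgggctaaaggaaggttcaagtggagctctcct
CDC20, chr1:43358731-43358980, plus strand: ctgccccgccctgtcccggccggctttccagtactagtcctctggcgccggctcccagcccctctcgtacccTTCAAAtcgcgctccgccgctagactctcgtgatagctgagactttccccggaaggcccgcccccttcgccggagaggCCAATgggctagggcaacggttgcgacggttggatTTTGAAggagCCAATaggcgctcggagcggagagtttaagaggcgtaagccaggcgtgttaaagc
In PLK1 the homology region began 29 bases and the CCAAT box 73 bases before the start. In CKS2 the homology region also began 29 bases before the start, on the other strand, with CCAAT boxes at 52, 70 and 148 bases. CDC20 held homology regions at 65 and 178 bases and CCAAT boxes at 55 and 100 bases. TOP2A held homology regions at 151 and 194 bases and 4 CCAAT boxes at 53 to 244 bases.

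Promoter composition also followed brightness over all protein-coding genes. The ratio of observed to expected CpG in the 250 upstream bases had medians of 0.426, 0.635, 0.817 and 0.854 from the dimmest to the brightest 25% of named genes. These bins held 1733, 2204, 2703 and 3067 protein-coding promoters. TATAAA was found in 17.5% of the dimmest bin, in 9.07% and 3.92% of the next bins, and in 5.09% of the brightest. CCGGAAG, the core that ETS factors bind, was found in 6.12%, 7.35%, 15.1% and 18.9% in the same order. Composition varied within a bin, with a 25th to 75th percentile of the CpG ratio of 0.175 to 0.740 in the dimmest. CCGGAAG contains a CpG, and TATAAA holds only A and T. Their counts were not separated from base composition, and no test was made. CpG-rich promoters were therefore commoner among bright genes, and TATA boxes among dim ones.

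**Figure D3:**
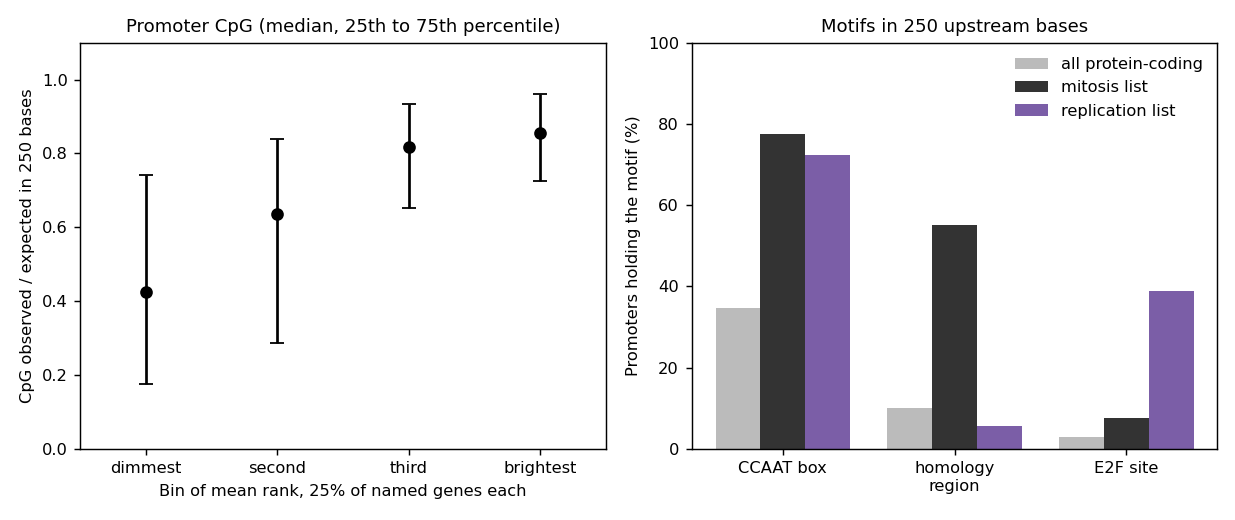
Left, the ratio of observed to expected CpG (vertical axis) in the 250 bases before the start of protein-coding genes, in 4 equal bins of mean rank, as the median (points) with the 25th to 75th percentile (bars). Right, the percent of promoters that hold a CCAAT box, a homology region or an E2F site for all protein-coding genes and for the mitosis and replication lists; the homology region is found in 55.0% of the mitosis promoters and 5.56% of the replication promoters, and the E2F sites in 7.50% and 38.9%.

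MicroRNA loci were mostly dim, with 564 of 1072 below the floor on every array and 29 in the top 25% of every array. Their probe sets read the precursor or its host transcript and not the mature microRNA. The microRNAs discussed were chosen after their values were seen. Their mature sequences are shown because the first pair shares a seed (bases 2 to 8, in capitals), the part that pairs with targets, and because the last is the microRNA best known in endothelium (RefSeq, GRCh38.p14).
hsa-miR-221-3p, chrX:45746180-45746202, minus strand: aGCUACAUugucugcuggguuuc
hsa-miR-222-3p, chrX:45747036-45747056, minus strand: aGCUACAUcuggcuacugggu
hsa-miR-21-5p, chr17:59841273-59841294, plus strand: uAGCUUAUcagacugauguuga
hsa-miR-126-3p, chr9:136670653-136670674, plus strand: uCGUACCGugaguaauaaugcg
MIR221 and MIR222 lie together on chromosome X, and the products shown share the seed GCUACAU. MIR221 lay at 97.8, 97.0 and 96.5 and MIR222 at 70.4, 77.9 and 85.4. MIR21, a locus raised in many tumours, lay at 88.3, 89.7 and 94.4. MIR126 lay at 30.6, 21.9 and 13.9, under the median of all named genes on all 3 arrays, and its host gene EGFL7 had no named probe set. MIR200C, a locus of epithelial cells, lay at 11.9, 4.64 and 6.56, below the floor. MIR221 was hence in the top 25% of every array, and MIR222 in that of replicates 2 and 3. MIR126 and MIR200C were dim beside all named genes. Each is a single locus, and the level of its mature product was not measured.

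A further set of genes for matrix, proteases and secreted proteins was chosen after the values were seen, and its brightest members are given as a description. EFEMP1 lay at 99.97 in the mean and THBS1, the adhesive glycoprotein thrombospondin 1, at 99.8, 99.9 and 99.9. The interstitial collagenase MMP1 gave log2 values of 12.56, 13.23 and 12.62, and the Wnt inhibitor DKK1 gave 12.66, 12.64 and 12.32. ANKRD1, a target of the YAP pathway as CCN2 is, gave 12.80, 12.49 and 12.69. MMP12 and MMP13, the collagenase of cartilage, lay at 8.81 ± 1.8 and 7.74 ± 5.3. A list of 30 further T-box, GATA and SOX factors, looked at in the same way, had a median of 43.9. Of these, 3 (10.0%) lay in the top 25% of every array, under the background of 22.1%, and 5 lay below the floor throughout. The 3 were TBX18 (96.8 ± 0.38) and TBX20 (96.1 ± 0.52), both known from heart development, and SOX4 (90.2 ± 2.4). SOX7 and GATA6, given above with their own lists, also lay in the top 25% of every array.

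Most genes held their place between arrays. Among the 10498 genes at or above the floor on all 3 arrays, the range between the highest and lowest percentile had a median of 4.94 and a 95th percentile of 13.5, and it exceeded 20 in 75 genes (0.714%). The widest range was that of EGR1, a transcription factor induced within minutes of a mitogen or stress, at 49.4, 79.2 and 94.9 (log2 values 6.67, 8.29 and 9.84). Its other probe set lay at a mean percentile of 31.3. FOSB, a subunit of the AP-1 factor, also ranked among the 8 widest, at 61.1, 81.8 and 96.0. The others of the 8 were KRTAP4-8 (a hair keratin-associated protein with close paralogs), the microRNA loci MIR502 and MIR4326, HINT2, the ephrin gene EFNA5 and the small RNA SNAR-H. EFNA5 was highest in replicate 2 and SNAR-H in replicate 1, so the wide ranges did not all run one way.

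Immediate-early genes were therefore looked at as a list, chosen after the values of EGR1 and FOSB were seen. Of 28 measured, 27 were at or above the floor on all 3 arrays, and their median range was 7.44. The range exceeded 20 in 4 of them. FOS lay at 67.0, 86.1 and 97.7 and ATF3 at 55.2, 63.4 and 79.0. Of the 27, 17 (63.0%) were lowest in replicate 1 and highest in replicate 3, as were 1819 of all 10498 genes (17.3%). Other members were alike on all arrays: JUN lay at 93.2, 95.3 and 95.8, FOSL1 at 98.7, 98.7 and 99.1, and MYC at 89.7, 91.1 and 90.7. EGR1 and FOSB, which prompted the list, are counted among the 17 and among the 4. CXCL8 and HMOX1, picked here after their values were seen, were also lowest in replicate 1 and highest in replicate 3. Other stress genes went both ways, in examples picked after their values were seen. SESN2 (81.9, 84.5 and 90.8) and TRIB3 (71.0, 73.9 and 79.7) followed this order, whereas DDIT3, DDIT4 and HSPB8 were highest in replicate 1. The order was not counted over the whole stress list. The control arrays thus differed among themselves in part of the immediate-early genes, a class that serum, handling and stress are known to induce. The part of handling, culture or normalization in this was not tested.

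**Figure D4:**
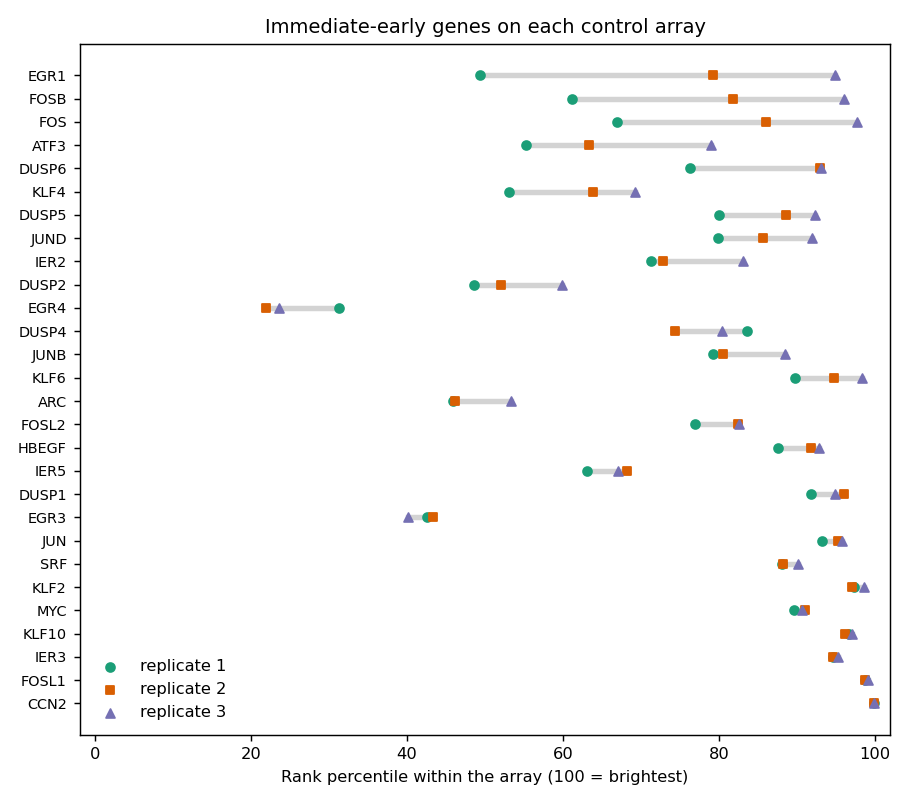
Rank percentile within each control array (horizontal axis, 100 is the brightest) of the 28 measured immediate-early genes, ordered by their range, with 1 symbol per replicate and a grey bar over the range. EGR1, FOSB, FOS and ATF3 have ranges above 20, and CCN2 and FOSL1 lie at the same place on all 3 arrays.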

How the data were processed

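The 3 control arrays were described from the deposited log2 intensities of 53617 probe sets, which the authors made by RMA. The software, as the submitters' processing notes name it, was Affymetrix Expression Console 1.3.1. A genome build was not given in the sources used here, and coordinates are those of RefSeq. Control arrays shared exactly equal values with exposed arrays of the same replicate number in 48.3% to 57.6% of probe sets, and with one another in at most 0.00187%. Log2 levels may therefore carry offsets between separate normalizations. An offset common to a whole array leaves ranks within it unchanged, but shifts of single probe sets would change them. Whether such shifts are present was not tested. The number of arrays limits the precision.

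The platform annotation gave 16098 probe sets 1 symbol, 0 several and 37519 (70.0%) none, and symbols were updated through the Entrez identifier. Of 913 list symbols, 541 were measured. Ranks were computed in Python 3.11.15 with pandas 2.3.3 and checked on simulated data. Named genes were the 15 brightest, up to 5 highest and 3 lowest members per list, KDR, ICAM2, GAPDH, and the 8 whose percentile varied most among genes at or above log2 5 on all 3 arrays. Cell type markers, genes completing a count and genes holding a motif are also named, and other genes are said to be chosen after their values were seen. The members and lists were chosen with earlier results of these data known. RefSeq promoters matched 10749 genes.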

Additional observations from a re-analysis of the deposited data

How the results depend on the processing

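Cell cycle, stress, endothelial and xenobiotic genes kept this order of their medians under all alternatives run. Epithelial genes fell below cytokine genes when probe sets of a gene were averaged and when only genes at or above the floor on at least 1 array were ranked. Ranked among all probe sets, the medians were 84.1 (endothelial), 57.9 (epithelial), 72.9 (xenobiotic), 87.9 (stress), 56.4 (cytokine) and 93.1 (cell cycle), since unnamed probe sets were dimmer. Ranked among genes at or above the floor, they were 70.2 (endothelial), 28.4 (epithelial), 54.4 (xenobiotic), 34.1 (cytokine) and 87.1 (cell cycle), since dim genes were left out. Averaging probe sets gave 37.2 for epithelial genes. Leaving out 1 replicate gave 72.2 to 75.9 (endothelial), 38.8 to 39.8 (epithelial), 55.2 to 56.9 (xenobiotic), 79.9 to 81.8 (stress), 36.8 to 37.0 (cytokine) and 88.9 to 90.2 (cell cycle). The lowest Spearman correlation between arrays was 0.968 among genes at or above the floor on all 3. Genes at or above the floor numbered 12769 with a floor of 4, 7793 with a floor of 6, and 10534 to 11145 without 1 replicate. No paired analysis was possible because no groups were compared. The order of genes near or below the floor is uncertain, because dim probes respond little to RNA.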
